A study of Mus musculus with 4 samples.

Results

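Cycling cells are the cells of brain tissue caught while copying their DNA or dividing. Here they were the cells with at least 1 UMI (unique molecular identifier, a count of 1 captured RNA molecule) of at least 3 of 8 genes of late S phase and mitosis: Top2a, Mki67, Cenpf, Ube2c, Prc1, Tpx2, Birc5 and Cdk1. This rule found 91 of 44912 cells, or 0.203%. They numbered 22 of 11241 in hippocampus DOCA-salt, 46 of 11231 in hippocampus sham, 12 of 11354 in cortex DOCA-salt and 11 of 11086 in cortex sham. The cells were thus chosen by their measured UMIs of these 8 genes, so the values of the 8 genes in them are a description and no result.

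The study sequenced single cells of the hippocampus and of the sensory cortex. The mice were wild-type and had DOCA-salt or sham treatment, with 1 droplet library of the 3' ends of transcripts for each tissue and treatment. DOCA is deoxycorticosterone acetate, a mineralocorticoid that raises blood pressure when given with salt. The labels give 3 mice per group without saying whether their cells were pooled, and the ages of the mice are not given in the sources used here. Groups follow the library titles, because the treatment field names DOCA-salt for both hippocampus libraries and sham for both cortex libraries. It thus goes against the titles of the hippocampus sham and the cortex DOCA-salt library, and every direction between treatments below rests on the titles. With 1 library per group there was no test. All intervals are exact 95% intervals that cover counting error only, not the spread between mice or library preparations. Shares that a count of 0 allows are set at 3 counts instead and lie below the exact upper limits. For hippocampus DOCA-salt cells under 5000 UMIs they are 0.0707% and 0.0869%.

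A cell that enters the cycle passes from G1, under cyclin D with CDK4 or CDK6, into S phase, where E2F factors switch on the genes that copy DNA. Genes of G2 and mitosis follow later and are switched on by the B-MYB-MuvB and FOXM1 complexes through the CHR element of their promoters, which often also hold CCAAT boxes. In the adult brain most neurons never divide again. Division goes on in microglia, the resident macrophages, which renew themselves, in oligodendrocyte precursors, and in the neural stem cells and their offspring in the dentate gyrus of the hippocampus and beside the lateral ventricle.

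The promoters are printed because the rule genes and the replication genes, which mark different stages of the same cycle, also differ in some of the letters near their start sites. In RefSeq windows on GRCm38.p6 that run from 250 bases before to 50 bases after the start, 7 of the 8 rule genes were matched, Tpx2 not. The letters searched on both strands were TTTGAA for the CHR, CCAAT for the CCAAT box, and TTTCCCGC, TTTCGCGC, TTTGCCGC or TTTGGCGC for an E2F-type site, and matches may overlap. Each stretch below is the 160 bases before the start site, 5′ to 3′ on the strand of the gene. Capitals mark these letters, with TTCAAA and ATTGG as the CHR and the CCAAT box read on the other strand.

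Ube2c, chr2:164769769-164769928, plus strand: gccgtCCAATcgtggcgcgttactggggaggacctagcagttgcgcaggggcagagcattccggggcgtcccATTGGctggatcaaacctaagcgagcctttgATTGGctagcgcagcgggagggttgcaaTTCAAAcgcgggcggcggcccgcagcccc
Top2a, chr11:99024190-99024349, minus strand: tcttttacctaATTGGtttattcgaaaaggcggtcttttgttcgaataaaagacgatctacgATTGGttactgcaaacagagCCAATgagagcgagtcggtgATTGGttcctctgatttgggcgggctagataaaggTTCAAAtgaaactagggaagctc
Cdk1, chr10:69352913-69353072, minus strand: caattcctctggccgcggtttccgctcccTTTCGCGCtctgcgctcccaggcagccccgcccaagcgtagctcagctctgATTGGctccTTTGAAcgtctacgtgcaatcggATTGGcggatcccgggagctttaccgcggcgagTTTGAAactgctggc
Mcm5, chr8:75109349-75109508, plus strand: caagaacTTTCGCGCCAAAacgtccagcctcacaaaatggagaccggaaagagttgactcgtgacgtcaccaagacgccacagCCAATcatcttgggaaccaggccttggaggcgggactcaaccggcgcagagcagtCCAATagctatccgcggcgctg

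Ube2c codes for the ubiquitin-conjugating enzyme with which the anaphase-promoting complex marks cyclins for destruction, and Top2a for the topoisomerase that untangles sister chromatids. Cdk1 is the kinase that drives mitosis, and Mcm5 a subunit of the helicase that opens DNA for copying. The CHR letters stood in the windows of 6 of the 7 matched rule genes, Birc5 being the exception, and a CCAAT box likewise in 6 of 7. Among the 40 matched genes of a list of 50 other G2 and mitosis genes, 30 (75%) held the CHR letters, 31 (77.5%) a CCAAT box and 25 (62.5%) both. Over all 27025 genes with a window these shares were 20.2%, 41.1% and 8.97%. The 28 matched genes of a list of 35 DNA replication and G1/S genes differed from this in the CHR but less in the CCAAT box: 4 (14.3%) held the CHR letters and 18 (64.3%) a CCAAT box, while 13 (46.4%) held E2F-type letters against 2.6% of all genes. None of the 40 G2 and mitosis genes held the E2F-type letters. Cdk1 was the single rule gene that did. In Mcm5 the run of capitals at the 5′ end holds a pair of E2F-type matches, on opposite strands, that overlap. A match describes the letters and is neither a bound site nor a cause.

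Before any comparison, the depth of the cells has to be set out, because 1 library stood apart in it. The deposited matrices held 11159 to 11402 barcodes and 66824217 to 70173987 UMIs per library over 32285 genes, and the median cell had 5600 to 5891 UMIs. The median cycling cell had 15850 UMIs in hippocampus DOCA-salt, 13134 in cortex DOCA-salt and 11643 in cortex sham, but 2916 in hippocampus sham. In that library 26 of the 46 cycling cells held under 5000 UMIs, against 0 of 22 in hippocampus DOCA-salt, 2 of 12 in cortex DOCA-salt and 0 of 11 in cortex sham. Any pair of libraries shared 93 to 102 barcodes, and none of these was a cycling cell in both libraries.

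**Figure D1:**
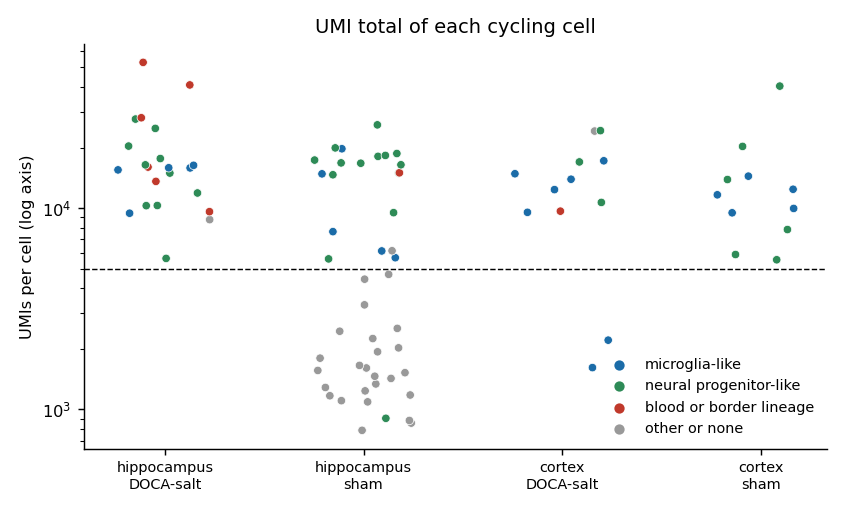
UMIs per cell on a log axis for each of the 91 cycling cells, by library and with 1 point per cell, coloured by lineage; points are spread sideways so that they can be told apart. The dashed line marks 5000 UMIs, under which lie 26 cells of hippocampus sham and 2 of cortex DOCA-salt.

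The first question was whether the share of cycling cells differed between DOCA-salt and sham. As the rule stands, 0.196% (0.123% to 0.296%) of the cells cycled in hippocampus DOCA-salt and 0.41% (0.3% to 0.546%) in hippocampus sham, a DOCA-salt over sham ratio of 0.478 (0.274 to 0.811). In cortex the shares were 0.106% (0.0546% to 0.185%) with DOCA-salt and 0.0992% (0.0495% to 0.177%) with sham, a ratio of 1.07 (0.43 to 2.66). The hippocampal ratio turned with depth. Among cells of at least 5000 UMIs, 22 of 7000 (0.314%, 0.197% to 0.475%) cycled in hippocampus DOCA-salt and 20 of 6998 (0.286%, 0.175% to 0.441%) in hippocampus sham, a ratio of 1.1 (0.573 to 2.12). The cortex ratio among such cells was 0.944 (0.359 to 2.45), from 10 of 6729 cells with DOCA-salt and 11 of 6986 with sham. So the lower hippocampal share with DOCA-salt rested on the shallow cells of the sham library, 26 of 4233 cells under 5000 UMIs (0.614%, 0.402% to 0.899%). The same depth range held 0 of 4241 in hippocampus DOCA-salt, which allows a share of up to 0.0707%, 2 of 4625 in cortex DOCA-salt and 0 of 4100 in cortex sham, which allows up to 0.0732%. With every cell thinned to 2000 UMIs, 12 of 9642 hippocampus DOCA-salt cells and 19 of 10018 hippocampus sham cells met the rule, a ratio of 0.656 (0.29 to 1.42). Thinning left out 1599 and 1213 shallower cells of these libraries, among them 19 of the 46 cycling cells of hippocampus sham.

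**Figure D2:**
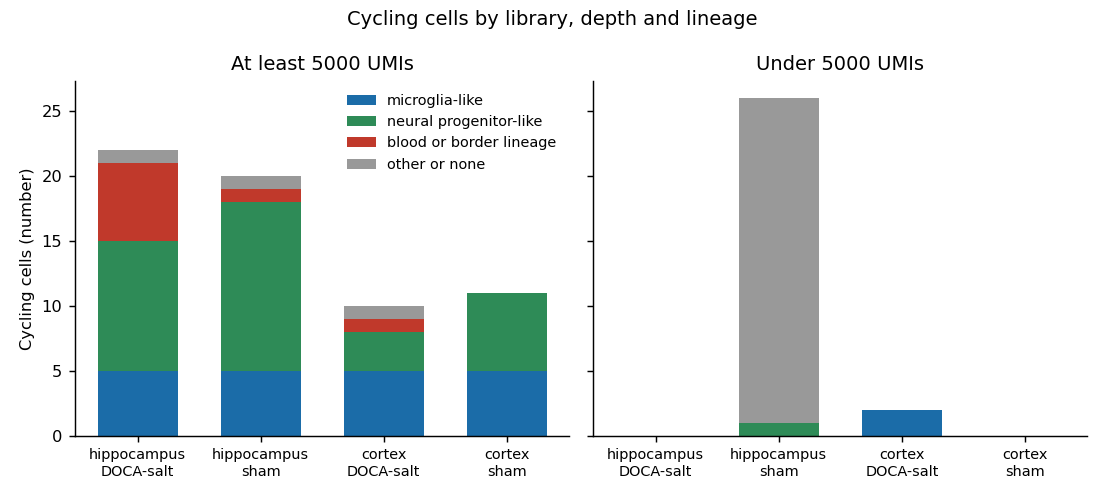
Number of cycling cells in each library, with bars stacked by lineage, for cells of at least 5000 UMIs on the left and under 5000 UMIs on the right. Each library holds 5 microglia-like cycling cells of at least 5000 UMIs, and the hippocampus sham library alone has a tall bar under 5000 UMIs. The 5 of hippocampus sham include 1 cell of 5670 UMIs for which the label is not borne out.

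The label of cycling cells was checked with 85 cell cycle genes that the rule did not use, the 35 replication and G1/S genes and the 50 other G2 and mitosis genes. These genes were read from the same cells, so the check is a description. Of the 63 cycling cells of at least 5000 UMIs, 60 held a UMI of at least 10 of the 85 genes, against 1267 of 27650 other cells of that depth. The median such cycling cell held 17 replication genes and 39 G2 and mitosis genes, where the median over all cells was 2 and 2. The 3 cells that fell short were a neuron-like cell of 8765 UMIs with 1 UMI each of 3 rule genes, a microglia-like cell of 5670 UMIs and an oligodendrocyte-precursor-like cell of 6139 UMIs. For these the label is not borne out. Of the 28 shallower cycling cells, 21 held at least 10 of the genes.

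The rule genes were concentrated in these few cells, as the rule made them. The 91 cells held 4115 of the 6614 UMIs of the 8 genes in the data, or 62.2%. Mki67, which codes for the Ki-67 protein that coats mitotic chromosomes, had 407 of its 502 UMIs (81.1%) in cycling cells, and 58 of the 91 had it. Ube2c had 1008 of 1297 UMIs (77.7%) there and was found in 74 of them. Tpx2, a spindle assembly factor, had 411 of 932 UMIs (44.1%) there, and Prc1, which bundles microtubules between separating chromosomes, 396 of 846 (46.8%). All 8 genes were found in 36 cycling cells: 11 in each hippocampus library, 8 in cortex DOCA-salt and 6 in cortex sham. Just inside the threshold were 17 cells with 3 genes, of which 12 were in hippocampus sham, at a median of 9 of the 50 other mitosis genes. Just outside were 117 cells with 2 genes, at a median of 4.

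The rule selects late stages, and the data show what it leaves out. Among cells of at least 5000 UMIs that failed the rule, 21 held at least 15 of the 35 replication genes. Of these, 13 were neuroblast-like, 3 T- or NK-cell-like and 2 microglia-like. Among the 63 cycling cells of that depth, 41 held at least 15 replication genes, 48 at least 25 G2 and mitosis genes and 33 both, and in 10 the replication genes took more UMIs than the mitosis genes. The neural stem-like cells had at least 15 replication genes in 10 of 10 cells, the neuroblast-like ones in 15 of 22 and the microglia-like ones in 11 of 20. At least 25 mitosis genes were found in 8 of 10, 18 of 22 and 15 of 20 of them.

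**Figure D3:**
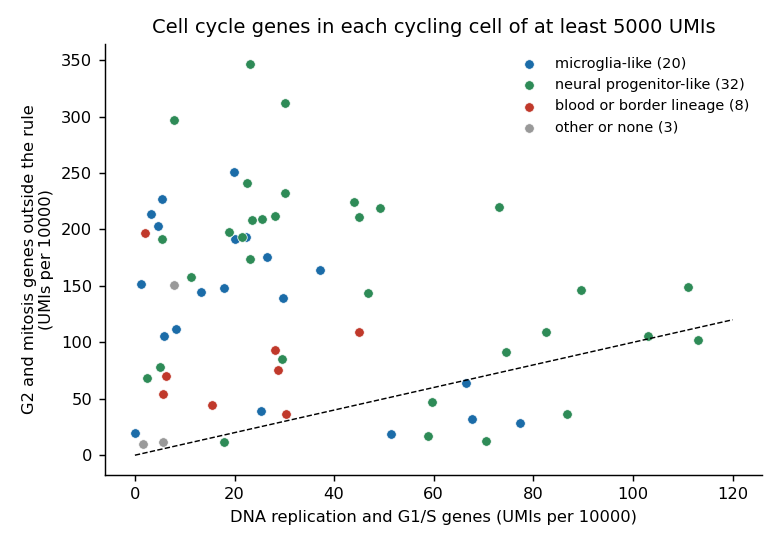
UMIs per 10000 of the cell for the 35 replication and G1/S genes (x axis) and for the 50 G2 and mitosis genes outside the rule (y axis), 1 point for each of the 63 cycling cells of at least 5000 UMIs, coloured by lineage with the number of cells. The dashed line marks equal values, and 10 cells lie under it, 4 of them microglia-like.

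Lineage was then read from markers that are no cell cycle genes. Of the 63 deeper cycling cells, 20 were microglia-like, 32 neural progenitor-like (22 neuroblast-like and 10 stem-like or transit-amplifying-like), 8 of blood or border lineages and 3 of other or no lineage. Neural progenitor-like cells made up 10 of 22 (45.5%, 24.4% to 67.8%) in hippocampus DOCA-salt and 13 of 20 (65%, 40.8% to 84.6%) in hippocampus sham. In cortex they made up 3 of 10 (30%, 6.67% to 65.2%) with DOCA-salt and 6 of 11 (54.5%, 23.4% to 83.3%) with sham. As a share of all cells of that depth, their DOCA-salt over sham ratio was 0.769 (0.302 to 1.9) in hippocampus and 0.519 (0.084 to 2.43) in cortex, and both intervals hold 1. Neural progenitor-like counts depended on the lineage rule. By the largest share of marker UMIs they were 8 and 10 in hippocampus with DOCA-salt and sham, and 3 and 4 in cortex. Microglia-like counts were then 6, 5, 5 and 5 in the same order. With markers of at least 2 UMIs, neural progenitor-like counts were 10, 12, 3 and 4. No astrocyte-like, endothelial-like or mural-like cell of at least 5000 UMIs cycled. Scrublet, a doublet caller, marked 4.27% to 6.65% of each library, and of the 91 cycling cells it marked 1, which was microglia-like in hippocampus sham.

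Microglia-like cells cycled at about the same low rate in the 4 libraries. In cells of at least 5000 UMIs the share was 5 of 2036 (0.246%, 0.0798% to 0.572%) in hippocampus DOCA-salt and 5 of 1544 (0.324%, 0.105% to 0.754%) in hippocampus sham. In cortex it was 5 of 1747 (0.286%, 0.093% to 0.667%) with DOCA-salt and 5 of 1867 (0.268%, 0.087% to 0.624%) with sham. Every interval holds the other 3 shares. The 5 cells of hippocampus sham include the cell of 5670 UMIs for which the label is not borne out, and 1 of the 5 was marked by Scrublet. Without marked cells the shares were 0.258% and 0.278% (4 cells) in hippocampus with DOCA-salt and sham, and 0.301% and 0.287% in cortex. Microglia-like cycling cells per all cells of that depth had DOCA-salt over sham ratios of 1 (0.23 to 4.34) and 1.04 (0.239 to 4.51) in hippocampus and cortex, and these intervals leave room for changes of either sign. Oligodendrocyte-like cells, which do not divide once mature, served as the background. Of their 2843, 3753, 1866 and 2122 cells of at least 5000 UMIs none met the rule, which allows shares of up to 0.106%, 0.0799%, 0.161% and 0.141%. Over all depths 8 of 4877 (0.164%, 0.0708% to 0.323%) met it in hippocampus sham, all under 5000 UMIs. At least 1 rule gene was found in 4.66% to 5.14% of them and in 4.23% to 6.15% of the microglia-like cells, at median depths of 6903 and 6798 UMIs outside the rule, so that 1 rule gene alone did not set the lineages apart.

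The 20 deeper microglia-like cycling cells each held 9 or 10 of the 10 microglial markers that gave the lineage, such as the purinergic receptor P2ry12. They were spread over the cycle. In hippocampus DOCA-salt the number of mitosis genes in the 5 cells was 14, 21, 45, 46 and 48. In hippocampus sham it was 8, 36, 36, 47 and 48, in cortex DOCA-salt 6, 29, 35, 42 and 49, and in cortex sham 15, 39, 39, 40 and 46. The libraries overlapped over nearly the whole range, and every library had at least 1 cell low in mitosis genes. The cells with few mitosis genes were high in replication genes in 3 libraries (17 genes at 14 mitosis genes and 26 at 21 in hippocampus DOCA-salt, 21 at 6 in cortex DOCA-salt, 26 at 15 in cortex sham), while the lowest cell of hippocampus sham had 0.

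Compared with 7174 other microglia-like cells of at least 5000 UMIs, the 22 microglia-like cycling cells were set apart by the rule itself, so this contrast is a description. Of 2293 genes with at least 20 UMIs in the cycling cells, 355 (15.5%) were at least 2-fold higher and 81 (3.53%) at least 2-fold lower by the mean over 4 libraries. All 44 measured G2 and mitosis genes and 12 of 14 measured replication genes were on the higher side. Ccnb1, the cyclin that activates CDK1, stood at 334 counts per 1000000 UMIs (CPM) against 0.301, and thymidine kinase Tk1 at 138 against 0.527 CPM. Hmgb2, a chromatin protein, had a UMI in 22 of 22 cells. Genes of CDK inhibitors and p53 targets were high as well, 6 of 9 measured being at least 2-fold higher. Cdkn1a, which codes for the CDK inhibitor p21, stood at 2404 against 395 CPM. Of 10 homeostatic microglia genes, 1 was at least 2-fold lower, the receptor Gpr34 (355 against 864 CPM). P2ry12 was at 1306 against 2498 CPM, the chemokine receptor Cx3cr1 at 1099 against 1946 CPM and Tmem119 at 871 against 1191 CPM. Csf1r, the receptor through which CSF1 and IL-34 keep microglia alive, was level at 2276 against 2286 CPM. None of 6 measured disease-associated microglia genes passed 2-fold in either direction. Of 14 genes of cytokines and the immediate early response 2 passed 2-fold upwards, Tnf (1784 against 677 CPM) and Il1b, whose UMIs came mostly from 1 cell.

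The next question was whether cycling microglia-like cells differed between DOCA-salt and sham. Their UMIs were summed per library, giving 72930 and 53950 in hippocampus (5 cells each) and 71619 (7 cells) and 57902 (5 cells) in cortex. In hippocampus, of 1099 genes with at least 20 UMIs in both libraries together, 65 (5.91%) were at least 2-fold higher and 95 (8.64%) at least 2-fold lower with DOCA-salt. With TMM scaling in place of UMI totals the hippocampal split was 80 higher and 75 lower. In cortex, of 1150 genes, 55 (4.78%) were at least 2-fold higher and 62 (5.39%) at least 2-fold lower, and 72 higher and 51 lower with TMM. Few genes had a ratio interval on the same side of 1 in both tissues, a criterion without the 2-fold threshold. Of 828 genes measured in both, 8 (0.966%) had a ratio whose interval lay above 1 in each tissue and 5 (0.604%) one whose interval lay below 1 in each.

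Of the cell cycle genes, the G2 and mitosis genes and the rule genes that passed 2-fold were all lower with DOCA-salt. The 1 replication gene that passed was higher, and the histone genes went both ways. Of 36 measured G2 and mitosis genes in hippocampus, none was at least 2-fold higher and 5 were at least 2-fold lower with DOCA-salt, at a median log2 ratio of -0.02 against -0.03 for all measured genes. In cortex none of 28 passed 2-fold in either direction, at a median of -0.24 against -0.01. None of these mitosis genes had an interval above 1 in either tissue, and 4 in hippocampus and 1 in cortex had one below 1. The 8 rule genes, which chose the cells, had medians of -0.29 and -0.55, with 3 and 2 at least 2-fold lower. Replication genes were too sparse to describe as a list in hippocampus, where 1 of 35 was measured. It was at least 2-fold higher with DOCA-salt (log2 ratio 2.09), with an interval above 1. In cortex 0 of 7 passed 2-fold. At least 15 replication genes were found in 4 of 5 deeper microglia-like cells with DOCA-salt and 1 of 5 with sham in hippocampus. In cortex these counts were 4 of 5 and 2 of 5. The hippocampus sham cells were shallower, and the part of stage and depth in the ratios was not tested. Of 8 measured histone genes in hippocampus 3 were at least 2-fold higher (median 0.73), and in cortex 1 of 9 was higher and 1 lower (median 0.02).

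Mki67 is a rule gene that helped choose the cells, so its values, among the lowest ratios in both tissues, are a description only. Its UMIs in the 5 hippocampus DOCA-salt cells were 1, 2, 3, 4 and 7, and in the 5 hippocampus sham cells 0, 3, 6, 7 and 37. The groups overlap, and 1 sham cell holds most of the UMIs. The ratio was 0.237 (0.129 to 0.416), and without that cell 0.57 (0.271 to 1.21). In cortex the cells had 0, 0, 2, 4, 5, 6 and 11 UMIs with DOCA-salt and 1, 4, 9, 20 and 23 with sham, a ratio of 0.397 (0.243 to 0.635) and of 0.532 (0.311 to 0.904) without the highest cell. Ckap5, which codes for a microtubule polymerase of the spindle, was likewise lower, at 0.311 (0.118 to 0.745) in hippocampus and 0.105 (0.0203 to 0.349) in cortex, where the 7 DOCA-salt cells had at most 1 UMI and the 5 sham cells 0, 3, 4, 6 and 10. Of the 7 cortex DOCA-salt cells, 2 had 1613 and 2208 UMIs in all, against at least 9478 in every cortex sham cell, and their zeros for Mki67, Ckap5 and Slc1a3 carry little weight. Without the highest cell the hippocampal Ckap5 ratio was 0.429 (0.147 to 1.21).

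Among genes of microglial identity, Tmem119 and Selplg were lower in both tissues. Tmem119 is a membrane protein that sets microglia apart from other macrophages, and Selplg a ligand of selectins. Tmem119 had 3, 6, 6, 9 and 18 UMIs in hippocampus DOCA-salt cells and 5, 7, 9, 14 and 19 in hippocampus sham cells, a ratio of 0.575 (0.375 to 0.877), or 0.644 (0.402 to 1.04) without the highest cell. The cells overlap widely. In cortex the ratio was 0.674 (0.462 to 0.978), and 0.432 (0.268 to 0.682) without the highest cell, which was a DOCA-salt cell. Other microglia-like cells had Tmem119 ratios of 0.816 and 0.693 in hippocampus and cortex, so the lower level was not peculiar to the cycling cells. Selplg was at 0.711 (0.562 to 0.898) and 0.649 (0.505 to 0.833), and at 0.884 and 0.811 in other microglia-like cells. Of the 8 measured homeostatic genes none passed 2-fold in either tissue, at medians of -0.10 and -0.02. In hippocampus 1 of the 8 had an interval above 1 and 2, Tmem119 and Selplg, had one below. In cortex 0 had one above and the same 2 had one below.

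Apoe, a carrier of lipids that microglia raise in disease-associated states, was higher in both tissues. Its UMIs per cell were 5, 11, 14, 14 and 55 with DOCA-salt and 1, 3, 8, 8 and 10 with sham in hippocampus, a ratio of 2.44 (1.61 to 3.81), which fell to 1.39 (0.852 to 2.28) without the cell of 55 UMIs. The sham cells were shallower, at a median of 7640 against 15836 UMIs, and per 10000 UMIs the cells overlapped, at 5.3, 6.95, 8.58, 9.04 and 34.7 with DOCA-salt and 1.63, 4.06, 5.29, 6.76 and 10.5 with sham. In cortex the cells had 1 to 52 and 10 to 25 UMIs, a ratio of 1.94 (1.49 to 2.55). Other microglia-like cells had Apoe ratios of 1.22 and 1.44. Outside microglia-like cells, where astrocytes are the main source of Apoe, its ratios were 1.85 and 1.28, and their part in the values of these cells was not tested. Ptma, which codes for prothymosin alpha, had ratios of 1.45 (1.13 to 1.87) and 1.49 (1.17 to 1.9), and without the highest cell both intervals hold 1. Of the 6 measured disease-associated genes 1 passed 2-fold upwards in hippocampus, which was Apoe itself, and 0 in cortex. The median log2 ratios were -0.07 and 0.33. In hippocampus 2 of the 6 had an interval below 1. In cortex 2 had an interval above 1 and 0 below.

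Slc1a3, Ttr and a pair of predicted genes differed between treatments far beyond the cycling cells. Slc1a3, which codes for the glutamate transporter GLAST and is best known from astrocytes, had 4, 10, 15, 22 and 34 UMIs in hippocampus DOCA-salt cells and 0, 0, 3, 3 and 4 in sham cells, a ratio of 6.29 (3.26 to 13.6). In cortex the cells had 0, 0, 5, 13, 14, 22 and 29 against 1, 1, 2, 7 and 7 UMIs, a ratio of 3.73 (2.22 to 6.6). Other microglia-like cells showed ratios of 11.3 and 5.86, and cells outside microglia 2.38 and 1.05. Slc1a3 was thus higher in microglia-like cells with DOCA-salt whether or not they cycled, and in cortex the cells outside microglia hardly differed. The predicted genes Gm8797 and Gm21860 had ratios of 51 (8.86 to 2045) and 15.5 (2.5 to 642) in hippocampus and of 47.7 (8.23 to 1916) and 21 (3.45 to 862) in cortex, from 1 sham UMI each. Without the highest cell Gm21860 was at 9.39 and 13.8, and other microglia-like cells had ratios of 23.2 and 37.1 for Gm8797 and of 14.8 and 19.7 for Gm21860. Outside microglia the ratios were 22 and 34.4 for Gm8797 and 1.53 and 0.986 for Gm21860. Both are uncertain: whether reads are shared with similar gene copies was not tested. Ttr, a transcript of choroid plexus epithelium, had 14, 15, 20, 52 and 70 UMIs in hippocampus sham cells and 1 UMI in all hippocampus DOCA-salt cells, a ratio of 0.00433 (0.000109 to 0.0244). The hippocampus sham library held 330 choroid-plexus-like cells against 3 with DOCA-salt, and Ttr stood at 3750 against 29.8 CPM in its other microglia-like cells and at 21643 against 150 CPM outside them.

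Several of the other large ratios came from 1 cell. Il1b, which codes for interleukin-1β, had all its 37 hippocampus sham UMIs in 1 cell, and 77 of the 94 UMIs of Il1a lay in 1 cell, without which the Il1a ratio went from 0.244 (0.157 to 0.37) to 0.856 (0.459 to 1.65). All 27 hippocampus DOCA-salt UMIs of the neuronal gene Nnat were in 1 cell, against 0 with sham. The exact lower bound of the ratio was 5.05, and a floor of 3 sham UMIs gives 6.66. In cortex 39 of the 52 DOCA-salt UMIs of the chemokine gene Cxcl2 were in 1 cell, and its ratio of 8.41 (3.38 to 27) became 2.61 (0.873 to 9.35) without it. The cluster histone genes Hist1h2ae and Hist1h2ab, transcribed in S phase, reached 20.7 (3.42 to 847) and 12.9 (3.33 to 111) in hippocampus, mostly from 2 cells each, and 8.51 and 6.62 without the highest cell. In the other tissue, and without the highest cell, Cxcl2 was at 0.63 (0.131 to 2.66), Hist1h2ae at 0.567 (0.208 to 1.43) and Hist1h2ab at 0.646 (0.173 to 2.42). For Cxcl2 the cell left out was a DOCA-salt cell of 9 UMIs. This left 4 UMIs with DOCA-salt and 6 with sham, so the ratio depends on that cell. A DOCA-salt cell of 8 UMIs was left out for Hist1h2ae and a sham cell of 7 UMIs for Hist1h2ab. Among the lowest in cortex, the receptor phosphatase gene Ptprj had 0 to 4 UMIs per DOCA-salt cell and 2 to 12 per sham cell, a ratio of 0.22 (0.0928 to 0.471), while other microglia-like cells stood at 1.19. The glycolytic enzyme gene Pgam1 was at 0.202 (0.0593 to 0.555), Susd3 at 0.231 (0.0763 to 0.592) and Plcl1 at 0.128 (0.0242 to 0.434). In other microglia-like cells these 3 genes had ratios of 0.911, 0.967 and 0.888. In hippocampus, without the highest cell, the ratios were 3.44 (1.03 to 18) for Ptprj, 1.33 (0.364 to 5.33) for Pgam1, 0.73 (0.231 to 2.2) for Susd3 and 5.67 (0.688 to 261) for Plcl1. For Ptprj the cell left out was a sham cell of 10 UMIs. This left 3 UMIs with sham and 22 with DOCA-salt, so the ratio depends on that cell. For Pgam1, Susd3 and Plcl1 it was a DOCA-salt cell of 4 UMIs. The lysozyme gene Lyz2 was at 9.3 (2.3 to 81.4) in cortex, or 5.52 (1.2 to 51.2) without the highest cell. The ubiquitin gene Ubb was at 0.697 and 0.704 in hippocampus and cortex, and without the highest cell both intervals hold 1. The Gm43305 ratio in hippocampus was 0.037 (0.000892 to 0.231), against 2.33 (0.907 to 6.7) in cortex without the highest cell.

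**Figure D4:**
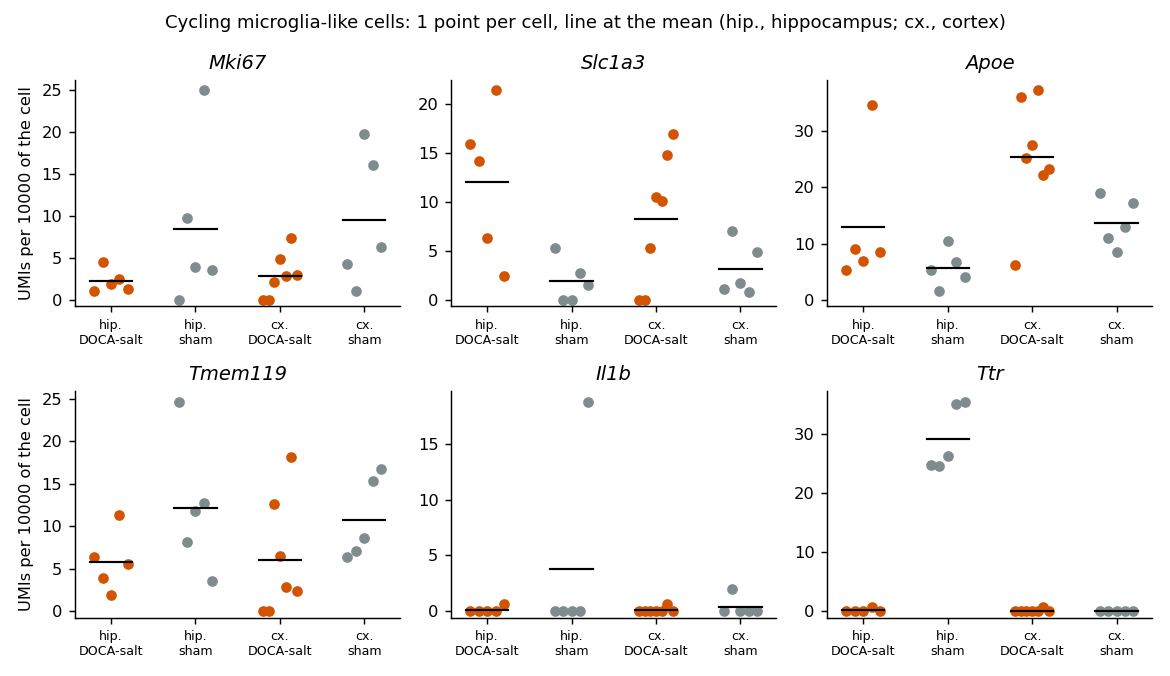
UMIs per 10000 of the cell for 6 genes in the microglia-like cycling cells, 1 point per cell and a line at the mean, by library (hip., hippocampus; cx., cortex). Slc1a3 and Apoe are higher on average with DOCA-salt in both tissues, Mki67 and Tmem119 lower with overlap, Il1b rests on 1 cell, and Ttr is high in the hippocampus sham library.

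Over the 4 libraries, neural progenitor-like cells were the largest group of the deeper cycling cells. The 22 neuroblast-like cells carried Sox11, a transcription factor of newborn neurons, in 22 cells, Igfbpl1 in 21 and Dcx, which codes for the microtubule protein doublecortin, in 18. The 10 stem-like cells carried the growth factor receptor Egfr and Slc1a3 in 10 cells each and Dcx in 1. Sox11, Igfbpl1, Dcx, Egfr and Hopx are on the marker lists that gave these lineages, so their presence is a description. Hopx, a marker of quiescent stem cells and astrocytes, was at 295 CPM in the stem-like cycling cells and at 1648 CPM in 285 other stem-like cells. Slc1a3 was at 1158 against 3487 CPM. Sox2 and Neurod1 were listed at 0 in all 32 cycling and 369 other neural progenitor-like cells, so the absence of these genes says nothing of the cells.

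Neuroblast-like cells had the largest cycling shares among the lineages described here. Of neuroblast-like cells of at least 5000 UMIs, 8 of 32 (25%, 11.5% to 43.4%) cycled in hippocampus DOCA-salt, 9 of 59 (15.3%, 7.22% to 27%) in hippocampus sham, 3 of 10 (30%, 6.67% to 65.2%) in cortex DOCA-salt and 2 of 5 (40%, 5.27% to 85.3%) in cortex sham. The hippocampal intervals overlap, and the cortex counts are too small to compare. The hippocampus sham library thus had more neuroblast-like cells of that depth than the DOCA-salt library, with a similar number cycling.

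Genes of forebrain regions were compared over the libraries, in a grouping chosen after the values were seen and not tested. Prox1 marks granule neurons of the dentate gyrus, Emx1 and Neurog2 the dorsal, glutamatergic lineage, and Dlx1, Dlx2 and Dlx5 the inhibitory lineage of the ventral forebrain and ventricle wall. At least 2 UMIs of Prox1, Emx1 and Neurog2 together were found in 9 of 10 cells in hippocampus DOCA-salt, 10 of 13 in hippocampus sham, 2 of 3 in cortex DOCA-salt and 1 of 6 in cortex sham. Emx1 and Neurog2 had no UMI in the cycling cells of either cortex library. At least 2 UMIs of the 3 Dlx genes were found in 5 of 10, 1 of 13, 2 of 3 and 1 of 6 cells in the same order. In hippocampus DOCA-salt 4 cells had both sets, and in hippocampus sham 0. Eomes, a factor of intermediate progenitors of the glutamatergic lineage, was found in 5 of 10 and 9 of 13 hippocampal cells and in 1 of 3 and 1 of 6 cortical ones.

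Microglia-like and neural progenitor-like cycling cells shared most genes of the G1 machinery and lay apart in Ccnd2 and in the level of Cdk4 in all 4 libraries. Among cells of at least 5000 UMIs, cyclin D2 (Ccnd2) was found in 32 of 32 neural progenitor-like and 2 of 20 microglia-like cells. Its level was 3294, 2134, 1773 and 1440 CPM in the former (hippocampus with DOCA-salt and sham, then cortex with DOCA-salt and sham) and 123, 18.5, 0 and 0 CPM in the latter. The ranges lie far apart, and other cells of these lineages, which did not cycle, were likewise at 586 and 5.19 CPM. Ccnd1 was found in 18 of 20 microglia-like cells (148 to 363 CPM) and in 13 of 32 neural progenitor-like ones (38.5 to 448 CPM), with overlapping levels. Cdk4, the kinase partner of D cyclins, stood at 55.6 to 247 CPM in microglia-like and at 843 to 1079 CPM in neural progenitor-like cells, while Cdk6 overlapped (82.3 to 398 and 19.3 to 288 CPM). Other microglia-like and neural progenitor-like cells had 73 and 290 CPM of Cdk4.

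The inhibitors of CDKs differed as well. Cdkn1a had 2948, 1112, 3260 and 2401 CPM in microglia-like cells and 100, 179, 154 and 21.3 CPM in neural progenitor-like ones, with no overlap. The antiproliferative p53 target Btg2 stood at 2261 to 3688 CPM in microglia-like cells and at 212 to 731 CPM in neural progenitor-like cells. In other, non-cycling microglia-like cells Btg2 stood at 3566 CPM, so its high level was not confined to cycling ones, whereas Cdkn1a stood at 395 CPM there. Cdkn1b, which codes for the inhibitor p27, ran the other way, at 13.7 to 55.6 CPM in microglia-like and 85.3 to 256 CPM in neural progenitor-like cells, with 55.4 and 114 CPM in the other cells of these lineages. Of the INK4 inhibitors, Cdkn2c had like levels in both lineages, at 147 to 274 and 171 to 259 CPM. So did Cdkn2d, at 96 to 241 and 96 to 231 CPM. Cdkn2a of the same family lay apart, on 12 and 2 UMIs. It was found in 9 of 20 microglia-like cells (29.5 to 86.4 CPM) and 2 of 32 neural progenitor-like ones (0 to 6.25 CPM). Other microglia-like cells had 0.684 CPM of Cdkn2a. Cdkn3, on the same gene list, stood at 147 to 259 and 19.3 to 139 CPM. Cdk1, a rule gene, stood at 426 to 967 and 231 to 459 CPM. Both lineages come from the same 4 libraries, and the difference between them was not tested.

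**Figure D5:**
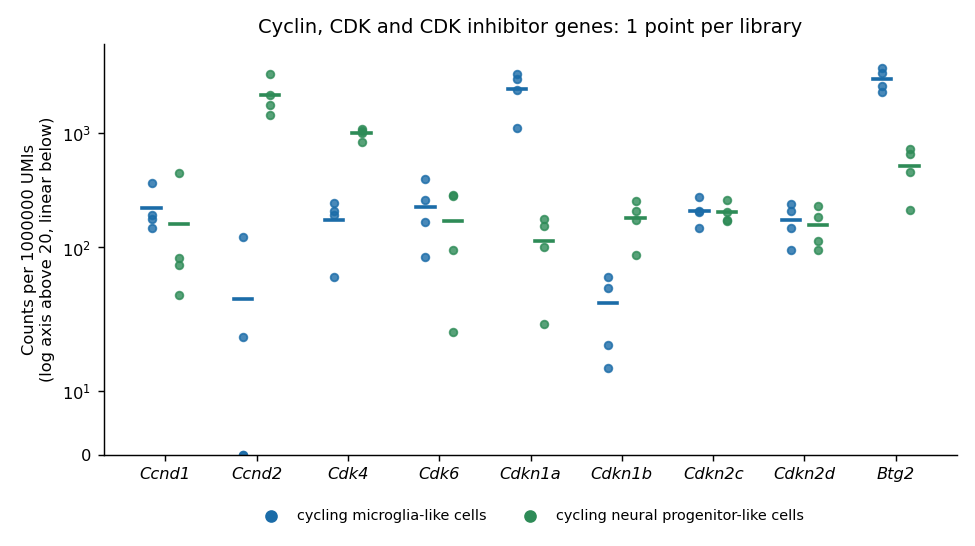
Counts per 1000000 UMIs of 9 cyclin, CDK and CDK inhibitor genes, 1 point per library for the microglia-like (20 cells) and the neural progenitor-like (32 cells) cycling cells of at least 5000 UMIs, with a line at the mean of the 4 libraries; the axis is logarithmic above 20 and linear below. Ccnd2 and Cdk4 are higher in neural progenitor-like cells in all 4 libraries, Cdkn1a and Btg2 in microglia-like cells.

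The cycling cells of blood and border lineages were few, and 6 of the 8 came from hippocampus DOCA-salt. The share among cells of at least 5000 UMIs was 6 of 7000 against 1 of 6998 in hippocampus sham, a ratio of 6 (0.728 to 276) whose interval holds 1. That library also held more blood cells in all: 41, 4, 8 and 9 neutrophil-like, 74, 35, 44 and 24 T- or NK-cell-like, 57, 21, 31 and 12 B-cell-like and 50, 19, 25 and 22 monocyte-like cells (hippocampus with DOCA-salt and sham, then cortex with DOCA-salt and sham). Their part in the count of cycling cells was not tested.

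Their markers include genes of immature blood cells. The pair of neutrophil-precursor-like cells had 40918 and 52962 UMIs, the highest totals of all cycling cells. They held 552 and 340 UMIs of Elane and 244 and 87 of Mpo, the elastase and peroxidase of primary granules that are made in early precursors. They also held 2218 and 1606 UMIs of Camp and 1045 and 1114 of Ngp, genes of the later secondary granules. The erythroid-like cell had 2708 UMIs of the β-globin gene Hbb-bs and 1254 of the α-globin gene Hba-a1. The T- or NK-cell-like cell had 203 UMIs of granzyme A (Gzma), 71 of Nkg7 and none of Cd3d, Cd3e or Cd3g, which code for CD3 subunits of the T-cell receptor complex. The B-cell-like cell had 22 UMIs of Cd79a, 43 of Ighm and 13 of Vpreb3, but also 26 of P2ry12 and all 10 microglial markers, so its markers name both lineages. The monocyte-like cell had 38 UMIs of Ly6c2 and 10 of Prtn3. In hippocampus sham the single such cell was rich in MHC class II genes, with 155 UMIs of H2-Aa and 417 of Cd74. In cortex DOCA-salt it was a border-macrophage-like cell with 52 UMIs of Pf4.

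The 26 shallow cycling cells of hippocampus sham were described on their own, with genes chosen after their values were seen. They had 787 to 4686 UMIs (median 1492) and a median of 11 G2 and mitosis genes but 2 replication genes. By the lineage rule 8 were oligodendrocyte-like, 13 had no lineage, 3 were endothelial-like, 1 astrocyte-like and 1 neuroblast-like. These cells were not alike. In the 8 oligodendrocyte-like ones the oligodendrocyte list took a median of 367 (329 to 532) UMIs per 10000 and mitosis genes 35.1. In the 18 that were not oligodendrocyte-like, mitosis genes took a median of 145 UMIs per 10000. Hmgb2 stood at 3561 CPM and Ccnb1 at 564 CPM in them, against 130 and 0.711 CPM in 4207 other cells under 5000 UMIs of that library. The 35 replication genes took a median of 15.9 UMIs per 10000 in the 18 cells, against 2.97 in all cells of that library under 5000 UMIs. The helicase gene Mcm5 stood at 141 against 2.37 CPM on 4 UMIs, and Pcna, the replication clamp, at 106 against 102 CPM on 3 UMIs.

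Genes of more than 1 lineage occurred together in these 18 cells. Smooth muscle actin (Acta2) was found in 15 of them, at 1375 CPM against 138 CPM in the other shallow cells and 3484 CPM in mural-like cells. The 10 mural markers together took a median of 50.4 UMIs per 10000 (0 to 77), with at least 3 of them in 16 of 18 cells, against a median of 290 (85.6 to 824) in mural-like cells. The endothelial list took 33.9 (0 to 80.9) and the oligodendrocyte list 61 (0 to 114), the latter against 52.2 in the other shallow cells. The pericyte genes Pdgfrb and Kcnj8 had no UMI, and neither did S100a8 or S100a9 of neutrophils. The astrocyte list took a median of 30.2 against 4.15 in the other shallow cells, with at least 3 markers in 9 of 18 cells. The neural stem list took 8.33 against 0 and the neuroblast list 0 in both, with at least 3 markers in 2 and 1 of the 18. Single genes of neural progenitors, some of them shared with astrocytes, were nonetheless high. Ccnd2 was found in 13 cells at 740 CPM against 35.2 CPM, Sox9 in 9 at 599 against 81.6 CPM and Fabp7 in 9 at 529 against 48.4 CPM. Thrsp, a regulator of fat synthesis that is known from neural stem cells, was found in 16 at 1304 against 71.3 CPM, and stood at 1256 CPM in the 4 stem-like cycling cells of that library of at least 5000 UMIs. Acta2 had no UMI in those 4. The barcodes of the 26 cells, 17 bases long, differed from one another in at least 6 bases. With this mixture no common lineage was given to the 18 cells.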

How the data were processed

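The deposited matrices hold counts of UMIs per gene and barcode, with gene and barcode names in other deposited files. Per the labels' protocols the libraries were made with a SeekOne DD droplet kit for 3' ends. Per the submitters' processing notes fastp, STAR, Subread, Seurat and GRCm38 were used; versions, annotation and counting strand are not given in the sources used here. The cycling cells and the gene and marker lists were chosen with earlier results of these data known.

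A barcode was kept if it had 300 genes or more and if mitochondrial genes took no more than 20% of its UMIs. This left out 119 and 163 barcodes in hippocampus (DOCA-salt and sham) and 48 and 73 in cortex. No cell type annotation was used, so lineages were rebuilt and can differ from those of the submitters. A cell took the lineage, of 19 lists of 10 markers, whose summed level was highest relative to the 99.9th percentile of that list over cells of at least 2000 UMIs, after subtraction of its 25th percentile in the library. It needed a score of 0.15, 3 markers and 5 marker UMIs, a rule set after the data were seen. Doublets marked by Scrublet (in scanpy 1.11.5, expected rate 0.08) were kept, since 1 cycling cell was marked.

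Each group held 1 library, so nothing was tested and there are no p-values. UMIs were summed per library and lineage and set as UMIs per 1000000 (CPM). Ratios carry exact conditional and shares exact binomial (Clopper-Pearson) 95% intervals, from scipy 1.17.1, and a count of 0 allows up to 3 counts; the intervals take UMIs as independent and leave out the spread between cells. A 2-fold ratio was the threshold of size, for genes with at least 20 UMIs. The genes named in DOCA-salt against sham were the 5 highest and 5 lowest per tissue, and over both tissues, by the interval bound nearest to 1, leaving out mitochondrial, ribosomal, haemoglobin, immunoglobulin, Xist, Tsix and Y-linked genes. The rule for named genes in cycling against other cells needed 20 cycling cells in each of 2 libraries, which no lineage had, so list genes are given there. The ratio intervals were checked on simulated data. Alternatives were other cell filters, other lineage rules, other numbers of rule genes, each rule gene left out and thinning to 2000 UMIs. Further ones were TMM factors (edgeR 4.0.16), equal weight per cell and no minimum of UMIs. The split at 5000 UMIs and leaving out single cells were added after the data were seen. Promoter windows came from RefSeq, GRCm38.p6. Results for some genes are not reported here.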

Additional observations from a re-analysis of the deposited data

Results flagged for a closer look

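The ratios of the shares of cycling cells lay on opposite sides of 1 in the 2 tissues, in cortex with an interval that holds 1. The DOCA-salt over sham ratio was 0.478 (0.274 to 0.811) in hippocampus and 1.07 (0.43 to 2.66) in cortex. Among cells of at least 5000 UMIs the ratios were 1.1 (0.573 to 2.12) and 0.944 (0.359 to 2.45). The difference between the tissues was not tested, as each group held 1 library.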

How the results depend on the processing

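Of 144 recomputed values 128 stayed within the spread allowed by counting error or within 1.5 times the count, 15 moved and 1 turned beyond its interval. That one was the hippocampal DOCA-salt over sham ratio of cycling shares, 0.478 over all cells and 1.1 in cells of at least 5000 UMIs, where the shares were 0.314% and 0.286%. The cortex ratio, 1.07 with an interval that holds 1, also fell on both sides of 1: 0.976 with at least 2 rule genes, 0.863 thinned and 0.944 in cells of at least 5000 UMIs. Leaving out each rule gene in turn gave 0.434 to 0.564 in hippocampus and 1.07 to 1.3 in cortex. With at least 2 rule genes the shares were 0.498%, 0.873%, 0.238% and 0.244% (hippocampus with DOCA-salt and sham, then cortex likewise), and 0.589% of hippocampus DOCA-salt microglia-like cells met the rule. Thinning put hippocampus sham at 0.19%. With no minimum of UMIs, 31 replication genes instead of 12 were at least 2-fold above other microglia-like cells, and 3238 genes were higher and 2639 lower with DOCA-salt in hippocampus, 2936 and 2671 in cortex, as genes of few UMIs enter. With equal weight per cell the cortex counts were 90 and 123 instead of 55 and 62; the cause was not tested. No paired analysis was possible because each group held 1 library. Counts of at most 13 cells per lineage and library limit every lineage ratio, and no value here holds the spread between mice.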
